A study of Gallus gallus with 26 samples.

Results

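The regions described here were compact stretches of H3K27ac on the chick microchromosomes that carried the mark in every library of both tissues. The 6 deposited H3K27ac peak lists were merged across gaps under 1 kb, which gave 51381 merged regions. A region was kept where it was under 10 kb wide, had a peak in all 6 lists, lay on chromosomes 11 to 28 or 30 to 33, and overlapped an H3K4me1 peak of at least 1 of the 4 H3K4me1 lists. This left 3562 regions. The same rule applied to chromosomes 1 to 10 gave 9988 regions, which served as the comparison set, and applied to chromosome Z it gave 772. The regions were thus selected on H3K27ac peaks in all 6 lists, on an H3K4me1 overlap, on merged width and on chromosome. These properties are given as a description, with no test.

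Interzone and adjacent proximal phalange were microdissected from hindlimb digit 3 of White Leghorn chick embryos incubated for 7.5 days (stage HH32). A joint will form at the interzone, where cells are tightly packed, and the phalange beside it is a cartilage rod. H3K27ac was profiled in 3 libraries and H3K4me1 in 2 libraries of each tissue, each library made from a pool of 100 specimens and called against input DNA. RNA was profiled in 3 libraries of each tissue. No treatment or genetic change is named in the labels of either tissue. Replicates are separate libraries by their labels, so p-values measure the spread between libraries, in which single embryos cannot be seen.

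Acetylation of lysine 27 on histone H3 (H3K27ac) marks active enhancers and active promoters, while monomethylation of lysine 4 (H3K4me1) is laid down over enhancers and beside active promoters. Around an active promoter H3K4me1 is typically low at the centre and higher on both sides. Microchromosomes are the small chromosomes of birds, known for a high density of genes and of G and C bases and for short introns.

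Per library, 52591 to 63642 H3K27ac peaks and 100251 to 111076 H3K4me1 peaks had been deposited. The regions held 10.7% to 11.2% of the H3K27ac peaks and 5.13% to 5.62% of the H3K4me1 peaks of each list. Replicate 3 of both tissues had the fewest H3K27ac peaks, with 53697 in interzone and 52591 in phalange. The number of reads behind the lists is unknown. In the RNA libraries, the summed normalized counts of 4 interzone markers (GDF5, ERG, ENPP2 and COL3A1) were 19534 to 99109 in interzone and 5280 to 8220 in phalange, and those of 6 cartilage markers were 10090 to 22472 and 28299 to 51539. These sums did not overlap and followed the labels. The 6 cartilage markers were COL2A1, MATN1, RUNX2, SNAI1, SOX9 and ACAN, and not each followed its sum. SOX9 overlapped, at 5401, 12879 and 5013 in interzone and 4541, 8037 and 10460 in phalange. Sums of the 4 skeletal muscle genes found did not overlap, at 1192 to 2796 in interzone and 497 to 1118 in phalange. Sums of the 4 blood genes found ranged from 686 to 50526 over both tissues. Whether muscle or blood cells were present in the ChIP pools was not tested.

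The regions were densely packed per Mb, but not per gene. They lay at 17.7 per Mb of chromosome span, measured up to the last peak, against 13.2 per Mb on chromosomes 1 to 10, and the median gap between neighbours was 21.4 kb against 26.2 kb. Together they covered 7.60% of the span of their chromosomes, against 5.20%. The microchromosomes made up 19.4% of the span of the numbered chromosomes and Z and held 24.9% of the regions there that met the rest of the rule. Density differed widely among the 22 chromosomes. Chromosome 21 was the densest, with 187 regions at 27.5 per Mb, and chromosome 31 the sparsest, with 24 regions at 3.90 per Mb. Chromosomes 26, 28, 15, 19 and 17 followed chromosome 21, with 23.2, 22.9, 22.2, 22.1 and 21.9 regions per Mb. Of the 22 chromosomes, 18 were denser than the pooled density of chromosomes 1 to 10, and 6 were denser than chromosome 10, the densest of those at 21.4 per Mb. Over the 22 chromosomes the number of regions followed the span (Pearson r = 0.90, Spearman rho = 0.90) and the number of protein-coding RefSeq genes (r = 0.82, rho = 0.83). Points in these correlations share the same libraries and one genome. Gene numbers came from another assembly (GRCg7b), in which the numbering of chromosomes 30 to 33 may differ. Leaving chromosomes 30 to 33 aside, there were 16.2 regions per 100 of these genes on chromosome 25, the fewest. Chromosome 12 had the most, at 87.7. Among chromosomes 1 to 10 the comparison regions ran from 79.9 per 100 genes on chromosome 9 to 115 on chromosome 2.

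**Figure D1:**
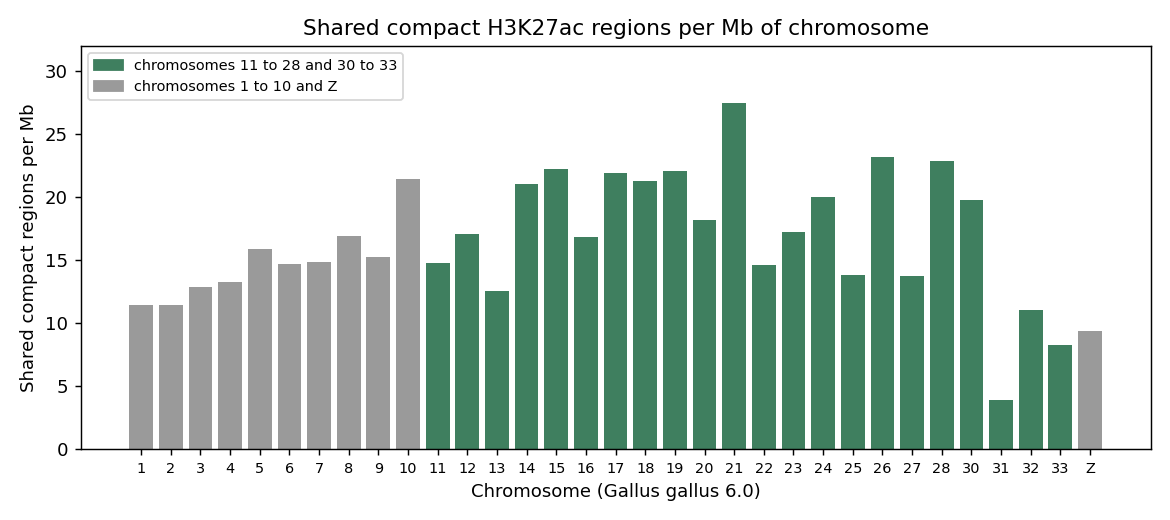
Shared compact H3K27ac regions per Mb of chromosome span (vertical axis) for each chromosome (horizontal axis). Green bars are the 22 microchromosomes and grey bars the comparison chromosomes 1 to 10 and Z. The bars run from 3.90 per Mb on chromosome 31 to 27.5 on chromosome 21.

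Compact regions shared by all lists were one of several kinds of H3K27ac region on these chromosomes. Of 12742 merged regions there, 4905 (38.5%) had a peak in all 6 lists, against 32.4% on chromosomes 1 to 10. Of the 4905, 1178 (24.02%) were 10 kb or wider and were left out by the rule, against 12.8% on the larger chromosomes. A further 165 compact regions (4.43%) overlapped no H3K4me1 peak and were left out too, against 71 (0.706%). Of these 165, 94 lay on chromosomes 16, 25 and 30 to 33. On chromosome 32, 9 of the compact shared regions (52.9%) had no H3K4me1 peak, on chromosome 31 23 (48.9%) and on chromosome 30 20 (35.7%). On chromosomes 21 and 24 every compact shared region overlapped an H3K4me1 peak. Of the 3562 regions kept, 3448 (96.8%) overlapped H3K4me1 in all 4 lists, 56 in 3 lists, 33 in 2 and 25 in 1.

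Widths ran from 290 to 9998 bp with a median of 3870.5 bp, against 3363.5 bp on the larger chromosomes. The widest region kept was chr28:4158851-4168848 (9998 bp, Gallus gallus 6.0, as all coordinates here), with an H3K27ac fold enrichment of 3.90 to 4.92 over the 6 libraries. The next widest was chr16:2260791-2270783 (9993 bp), at 4.51 to 5.12. Just outside the limit lay chr18:3010786-3020790 (10005 bp), at 3.25 to 3.67, and chr21:5182233-5192244 (10012 bp), at 2.79 to 5.73. The regions on either side of the limit thus had folds of the same order.

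Fold enrichment over input, as the peak caller gave it, was averaged over the peaks of a library in a region by their length. Median H3K27ac folds were 3.64, 3.62 and 3.87 in interzone libraries 1, 2 and 3 and 3.76, 3.47 and 3.81 in phalange libraries 1, 2 and 3. The corresponding medians on chromosomes 1 to 10 were 3.52, 3.52 and 3.68 in interzone and 3.58, 3.37 and 3.73 in phalange. The microchromosome median was the higher one within each of the 6 libraries, although the differences were small. On average it was higher by 0.05 ± 0.02 on the log2 scale (SD, n = 6 libraries), a ratio of 1.03. The two-sided exact sign-flip permutation p was 0.03125, the smallest that 6 libraries allow, and 0.0781 after adjustment over 5 exact permutation tests. The difference therefore did not pass after adjustment. The sets also differed in width, with 34.4% of these regions and 27.7% of the comparison regions from 5 to 10 kb wide. Folds rose with width, as given below, and come from the peaks that the rule used. The p therefore does not separate chromosome from width. The log2 difference was 0.0063 (adjusted p = 0.391) with a width limit of 5 kb and 0.081 (adjusted p = 0.0781) with peaks of q at most 0.001, from the same exact permutation test.

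Median H3K4me1 folds differed more from those on the larger chromosomes than median H3K27ac folds did. The rule needed an H3K4me1 peak, which left out 4.43% of compact shared regions here and 0.706% on chromosomes 1 to 10. The sets were thus not cut alike on this mark, and how far this shifts the values below was not tested. Median H3K4me1 folds were 3.91 and 4.21 in interzone libraries 1 and 2 and 3.80 and 4.05 in phalange libraries 1 and 2, against 3.51, 3.71, 3.44 and 3.58 on chromosomes 1 to 10. All 4 libraries were higher on the microchromosomes, by 0.17 ± 0.02 on the log2 scale (SD, n = 4), a ratio of 1.12. With 4 libraries the two-sided exact sign-flip permutation test cannot go below p = 0.125, the value it gave (adjusted p = 0.156), so this difference could not pass. By chromosome, the median log2 fold was 1.80 on chromosome 1, 1.92 on chromosome 9 and 1.91 on chromosome 10. It was 1.91 on chromosomes 11 and 12, so neighbouring sizes on either side of the division had similar levels. At the centre of the merged region, an H3K4me1 peak was present in 74.8% and 76.2% of the regions in interzone and in 77.1% and 78.5% in phalange. These shares were lower than on the larger chromosomes in each library, by 2.68 ± 0.30 percentage points on average (SD, n = 4), with the same exact p of 0.125. This difference was much smaller under other choices, at -0.80 points without chromosomes 16, 25 and 30 to 33, -0.89 with a width limit of 5 kb and -0.44 with peaks of q at most 0.001. At the centre of the stretch common to all 6 H3K27ac lists, a choice made after seeing the data, it was -1.65.

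H3K27ac peaks also took up more bases in a region on the microchromosomes. Per region they covered a median of 2338, 2341 and 2279.5 bp in interzone libraries 1, 2 and 3 and 1928, 2119.5 and 2110 bp in phalange libraries 1, 2 and 3. This was 233.5 ± 102 bp more than on the larger chromosomes (SD, n = 6) and was more in 6 of 6 libraries. Covered bases depend on the peaks and widths that the rule used, so the p of their test is not given. That test is among the 5 over which p was adjusted. The excess was 66.5 bp with a width limit of 5 kb and 433 bp with peaks of q at most 0.001. The excess in H3K27ac fold over the larger chromosomes was 0.0059 higher in interzone than in phalange on the log2 scale (two-sided exact permutation test over 3 and 3 libraries, p = 0.7, smallest possible 0.1). The sign of this last value changed when replicate 3 was left out, to -0.0037 without interzone 3 and -0.0031 without phalange 3.

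**Figure D2:**
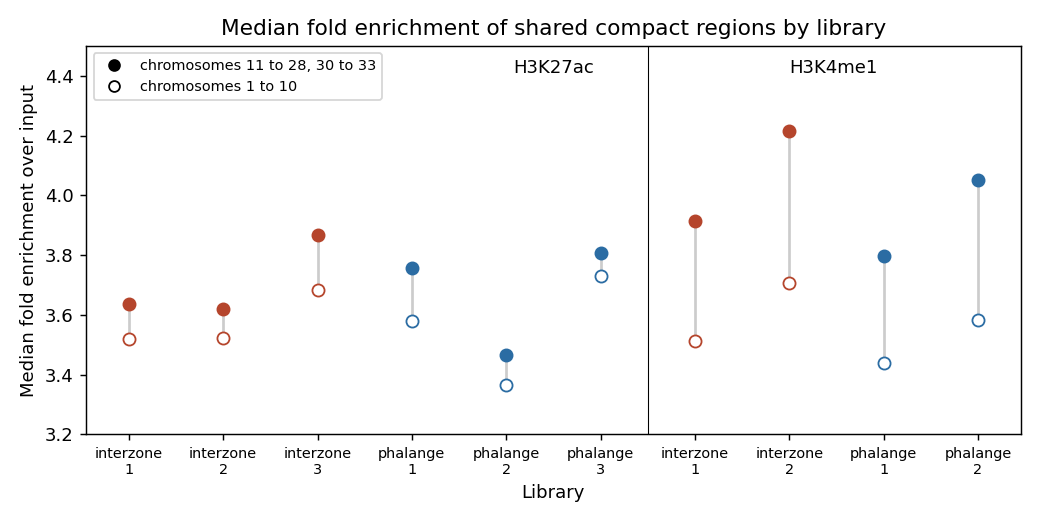
Median fold enrichment over input (vertical axis, starting above 0) in each H3K27ac and H3K4me1 library (horizontal axis). Filled points are the 3562 regions on chromosomes 11 to 28 and 30 to 33, and open points the 9988 regions on chromosomes 1 to 10. Filled points lie above open points in every library, by a mean ratio of 1.03 for H3K27ac and 1.12 for H3K4me1.

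A few chromosomes stood apart in both marks. Chromosomes 16, 30, 32 and 31 had the highest median H3K27ac on the log2 fold scale of the 22 chromosomes, at 2.48, 2.30, 2.25 and 2.14. The same 4 chromosomes had the lowest median H3K4me1, at 1.69, 1.85, 1.62 and 1.51. They held 48, 36, 8 and 24 regions. On the other 18 chromosomes median H3K27ac ran from 1.73 on chromosome 13 to 1.98 on chromosomes 25 and 26, and median H3K4me1 from 1.91 on chromosomes 11 and 12 to 2.16 on chromosome 27. Over all 22 chromosomes the medians of the 2 marks had a Pearson r of -0.68 and a Spearman rho of -0.18. Over these 18 chromosomes r was 0.39 and rho 0.48. The 4 chromosomes were set aside because of these same medians, so the sign depends on that choice. Regions from the same libraries lie behind every point. No test was run.

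Single regions spread far more than these medians. In each H3K27ac library the folds of the 3562 regions ran from about the lowest called level to a strongly enriched tail. In interzone library 1, for example, the lowest was 2.06, the median 3.64, the 95th percentile 8.02 and the highest 12.6. In phalange library 3 the same values were 2.02, 3.81, 10.03 and 14.9. H3K4me1 was more even, with a 95th percentile of 5.43 and a highest value of 7.29 in interzone library 1. Wider regions were more enriched in H3K27ac. The 571 regions under 2 kb had a median fold of 2.97, the 1767 regions from 2 to 5 kb 3.53, and the 1224 regions from 5 to 10 kb 4.41. On the larger chromosomes these medians were 2.98, 3.47 and 3.94, so that the widest class stood furthest above its counterpart.

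The 5 regions with the highest H3K27ac lay on chromosomes 14, 12, 20 and 11. The first was chr14:1262322-1267508, with folds of 12.4, 12.8 and 16.1 in interzone libraries 1, 2 and 3 and 12.5, 11.1 and 14.7 in phalange libraries 1, 2 and 3. A second region some way along the same chromosome, chr14:1361499-1366280, had folds of 12.2, 13.4 and 14.7 in interzone and 12.6, 11.5 and 14.8 in phalange. The third, chr12:11075892-11079519, had 11.1, 12.1 and 16.1 in interzone and 13.1, 12.1 and 14.9 in phalange. In these 3 regions the libraries of both tissues overlapped. The other two were chr20:10994943-11000585, at 10.4 to 13.7 over the 6 libraries, and chr11:7355359-7360342, at 11.2 to 13.4. None of the 5 was called between the tissues, with log2 differences between -0.09 and 0.11 and limma adjusted p from 0.659 to 0.894. Their H3K4me1 folds were ordinary by comparison, at 3.43 to 5.32 over the 4 libraries.

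The stretch of a region covered by a peak in all 6 lists was shorter than the merged region. In 353 regions (9.91%) no base was covered in all 6 lists, although every list had a peak somewhere in the region, and on the larger chromosomes this share was 10.5%. These 353 regions were narrower (median 3038 bp against 4009 bp) and less enriched (median fold 2.64 against 3.87) than the others. The other 3209 had a common stretch of at least 1 base, with a median of 1148 bp for the longest one. H3K4me1 was then read at the centre of this stretch. In 2292 regions (71.4%) an H3K4me1 peak covered that centre in all 4 lists, and these are called covered below. In 240 regions (7.48%) it was absent there in all 4 lists while an H3K4me1 peak was present within 2 kb on both sides in all 4, and these are called flanked. The shares on the larger chromosomes were 71.8% and 6.96%. The remaining 677 regions had neither layout.

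Flanked regions carried about as much H3K4me1 as covered regions but far more H3K27ac. Median H3K27ac folds of the flanked regions were 6.62, 6.93 and 8.72 in interzone libraries 1, 2 and 3 and 7.46, 6.68 and 8.42 in phalange libraries 1, 2 and 3. Those of the covered regions were 3.49, 3.45 and 3.63 in interzone and 3.58, 3.29 and 3.59 in phalange. The ratio of the medians was 1.89 to 2.40 over the 6 libraries, while for H3K4me1 it was 1.02 to 1.09 over the 4 libraries. Flanked regions also had a longer common stretch, with a median of 2260 bp against 855.5 bp. The layouts were defined after the data had been seen, so these values are a description with no test. The same contrast was present on chromosomes 1 to 10, with ratios of 2.05 to 2.46 for H3K27ac.

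**Figure D3:**
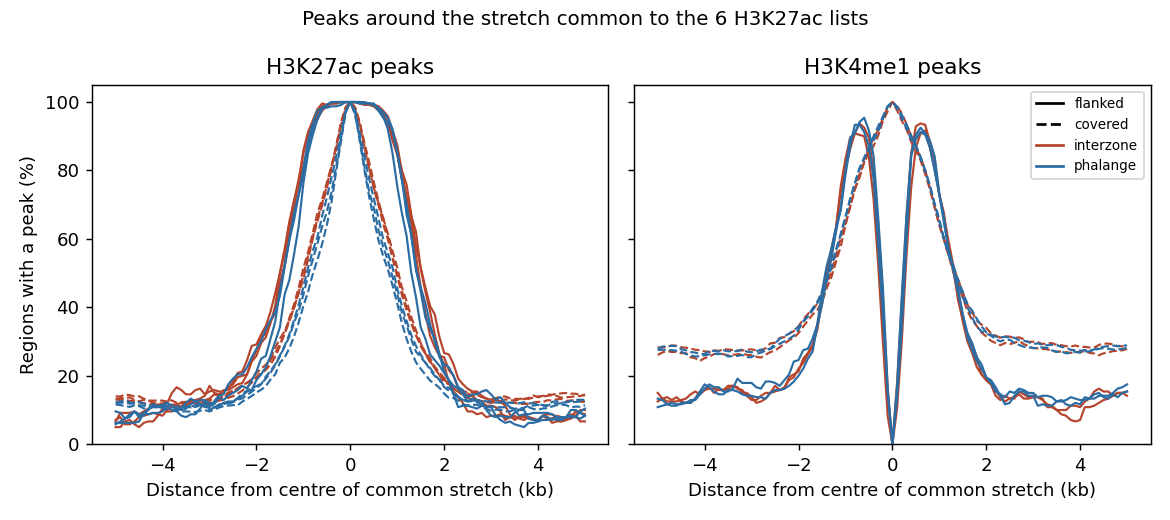
Share of regions with a peak (vertical axis, %) by distance from the centre of the common stretch (horizontal axis, kb), for H3K27ac (left) and H3K4me1 (right). Each line is 1 library, with solid lines for the 240 flanked and dashed lines for the 2292 covered regions. At 1 kb from the centre H3K27ac was present in 75.4% to 87.5% of flanked and 40.4% to 51.6% of covered regions. The values at the centre are set by the definition of the layouts.

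H3K27ac was then compared between interzone and phalange, which asks where on the microchromosomes acetylation differs between joint and cartilage cells within regions that both tissues mark. Log2 folds, centred on the median of each library, were tested with limma over all 17455 merged regions with a peak in all 6 lists, of which 15.9% were called at an adjusted p under 0.05. Among the 3562 regions 435 (12.2%) were called. In interzone 199 were higher (5.59%, against a background of 7.4%), and in phalange 236 (6.63%, against 8.54%). The comparison set on chromosomes 1 to 10 had 16.3% called. The share called was thus lower than over all tested regions, and this difference was not tested because regions of 1 library are not replicates.

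The called differences were modest. Their median was 0.47 on the log2 scale for regions higher in interzone and -0.49 for those higher in phalange, and the 5th to 95th percentile over all 3562 regions was -0.42 to 0.39. In 6 of the 3562 regions the called difference was more than 2-fold, with 1 higher in interzone and 5 in phalange. Over all 17455 tested regions there were 67, with 11 higher in interzone and 56 in phalange. Among the 9988 regions on chromosomes 1 to 10 there were 42, with 10 and 32. The lean to phalange was thus not particular to these regions. Libraries of the 2 tissues did not overlap in 449 regions higher in interzone and 480 higher in phalange, 26.1% together, against a background of 32.1% of all tested regions. Every region had a peak in each library, so its fold was at least at the level of a called peak in both tissues. Leaving out interzone 3 lowered the number higher in interzone to 120, and leaving out replicate 3 of both tissues, a choice made after seeing the data, lowered it to 100 and gave 168 higher in phalange.

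**Figure D4:**
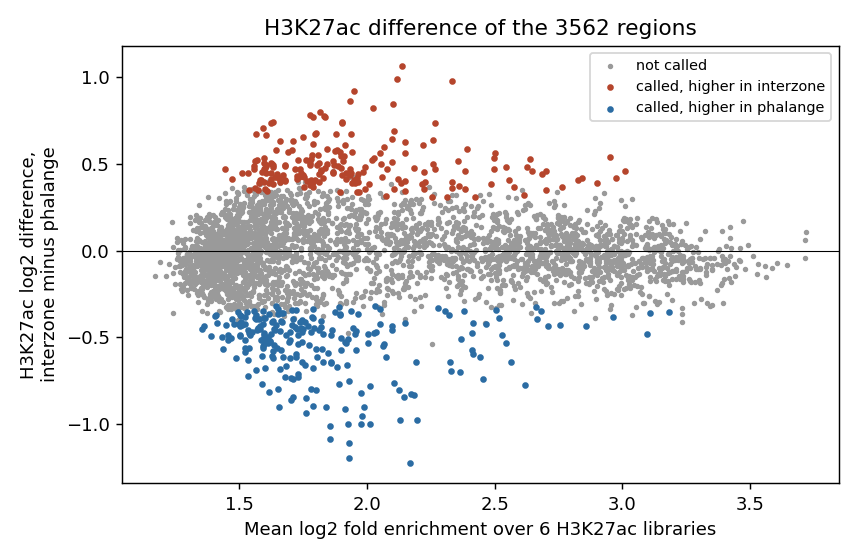
H3K27ac log2 difference, interzone minus phalange (vertical axis), against the mean log2 fold enrichment over 6 libraries (horizontal axis), with 1 point for each of the 3562 regions. Red points are the 199 regions called higher in interzone, blue points the 236 called higher in phalange and grey points the rest. Called regions gather at middle levels of enrichment. The rule needs a peak in all 6 lists, which limits the differences possible at the lowest levels.

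Called regions were most frequent at middle levels of H3K27ac. When the regions were divided by mean fold into 4 groups of 890 or 891, 4.49% were called in the lowest group (folds of 2.25 to 2.90) and 22.8% in the next (2.90 to 3.59). In the third group (3.59 to 5.86) 18.4% were called, and in the highest (5.87 to 13.2) 3.14%. The lowest group had 35 of its 40 calls in phalange, whereas the others were more balanced. The rule needed a called peak in all 6 lists, so at the lowest levels neither tissue could fall far below the mean. The SD of the log2 difference was 0.17 in the lowest group and 0.30 in the next. How much of the low share called in the lowest group the rule sets was not tested. By width, 7.53% of the regions under 2 kb, 11.5% of those from 2 to 5 kb and 15.4% of those from 5 to 10 kb were called, against 7.64%, 15.3% and 24.3% on the larger chromosomes. Layout divided the calls as well. Among covered regions 355 of 2292 (15.5%) were called and among flanked regions 4 of 240 (1.67%), and the SD of the log2 difference over regions was 0.26 and 0.14. On the larger chromosomes the shares were 19.4% and 2.25%. Flanked regions had median H3K27ac folds of 6.62 to 8.72 by library, within the range of the highest group. The SD of the log2 difference in that group was 0.15. Layout and level were thus not told apart here.

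In called regions the peaks differed in extent as well as in height. Regions higher in interzone had a median of 3174 bp of H3K27ac peaks in interzone and 1729 bp in phalange. Regions higher in phalange had 1624 bp in interzone and 3199 bp in phalange. In regions that were not called the medians were 2321 and 2001 bp. Both measures come from the same peaks and are not independent.

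The largest excess in interzone was at chr13:10514312-10519066, a region of 4755 bp. Its H3K27ac folds were 6.14, 5.91 and 7.06 in interzone libraries 1, 2 and 3 and 3.44, 3.06 and 2.66 in phalange libraries 1, 2 and 3, a log2 difference of 1.07 ± 0.12 (SE, limma adjusted p = 3.64e-05). The peaks covered 2938 to 3505 bp in interzone and 516 to 920 bp in phalange. H3K4me1 did not move with it, at 2.59 and 3.56 in interzone and 3.31 in both phalange libraries. Interzone and phalange libraries were thus fully apart for H3K27ac and overlapping for H3K4me1.

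Chromosome 17 held 2 further regions of this kind. At chr17:3087247-3093272 (6026 bp) H3K27ac folds were 5.49, 5.83 and 7.14 in interzone and 3.30, 2.94 and 3.02 in phalange, a log2 difference of 0.99 ± 0.11 (SE, limma adjusted p = 2.86e-05). H3K4me1 there was 4.18 and 4.04 in interzone and 3.02 and 3.12 in phalange. At chr17:10231492-10237067 (5576 bp) H3K27ac folds were 5.51, 4.71 and 5.76 in interzone and 2.96, 2.58 and 2.90 in phalange, a log2 difference of 0.92 ± 0.11 (SE, limma adjusted p = 4.03e-05). Both marks were higher in every interzone library than in any phalange library at these regions, but the H3K4me1 difference passed the adjusted threshold at neither.

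The remaining 2 of the 5 were chr18:2779472-2785655 (6184 bp) and chr20:6603545-6610709 (7165 bp). The first had H3K27ac folds of 6.77, 7.87 and 6.65 in interzone and 3.79, 3.36 and 3.64 in phalange (log2 difference 0.98 ± 0.11, SE, limma adjusted p = 2.86e-05). The second had 5.03, 4.98 and 5.42 in interzone and 2.84, 2.94 and 2.73 in phalange (0.86 ± 0.11, SE, limma adjusted p = 6.31e-05). At the region of chromosome 20, H3K4me1 was 4.32 in both interzone libraries and 2.85 and 2.78 in phalange (limma adjusted p = 0.217).

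The largest excess in phalange was at chr17:7370899-7377937, a region of 7039 bp. H3K27ac folds were 3.05, 2.85 and 2.90 in interzone libraries 1, 2 and 3 and 6.58, 6.08 and 8.14 in phalange libraries 1, 2 and 3, a log2 difference of -1.23 ± 0.11 (SE, limma adjusted p = 7.08e-06). H3K4me1 was 3.69 and 3.95 in interzone and 4.25 and 4.36 in phalange. Phalange was higher in every library for both marks, with a larger gap for H3K27ac.

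Further regions chosen for their excess in phalange lay on chromosome 11. At chr11:18777943-18786498 (8556 bp) H3K27ac folds were 2.63, 2.36 and 2.58 in interzone and 5.85, 4.69 and 7.01 in phalange, a log2 difference of -1.19 ± 0.12 (SE, limma adjusted p = 1.70e-05). This region had no H3K4me1 peak in interzone 1, while the other libraries had folds of 2.07 in interzone and 2.91 and 3.08 in phalange. At chr11:19491570-19495401 (3832 bp) H3K27ac folds were 2.67, 2.52 and 2.45 in interzone and 5.01, 4.70 and 5.78 in phalange, a log2 difference of -1.01 ± 0.11 (SE, limma adjusted p = 2.60e-05). In interzone 3 the peak at this second region covered 204 bp, against 2154 to 2800 bp in the phalange libraries.

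The other two were chr12:817418-822163 (4746 bp) and chr20:7957861-7961142 (3282 bp). The first had H3K27ac folds of 2.41, 2.84 and 2.54 in interzone and 5.30, 5.22 and 6.36 in phalange (log2 difference -1.11 ± 0.11, SE, limma adjusted p = 1.70e-05). The second had 2.70, 2.46 and 2.31 in interzone and 4.92, 4.86 and 6.14 in phalange (-1.08 ± 0.11, SE, limma adjusted p = 2.61e-05). All 10 regions named for their difference were called under each alternative that could be computed for them. With peaks of q at most 0.001 and regions rebuilt, only chr17:3087247-3093272, chr18:2779472-2785655 and chr17:7370899-7377937 had a value. The rest of the 10 had none under that setting, so their calls were not tested there.

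**Figure D5:**
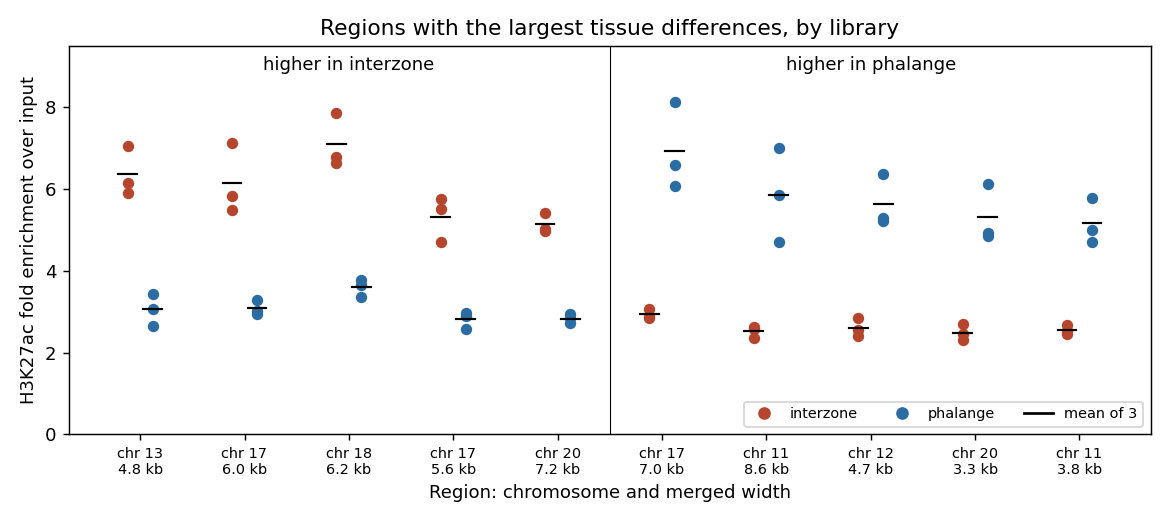
H3K27ac fold enrichment over input (vertical axis) in each library for the 10 regions with the largest called differences (horizontal axis, by chromosome and merged width). Points are libraries and black lines the means of 3 libraries. The libraries of the 2 tissues do not overlap in any of the 10 regions, and the less acetylated tissue lies between 2.31 and 3.79.

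Calls on neighbouring regions tended to share a direction. Neighbours here are regions next to each other within this set, so H3K27ac regions that the rule left out can lie between them. Among 3540 neighbouring pairs on the same chromosome, both were called in 89, and in 75 of these (84.3%) both differed in the same direction. Over all pairs, called or not, 53.8% had differences of the same sign. That share includes regions with differences near 0, so it is not a like baseline. No share of called pairs is given here for chromosomes 1 to 10, so the agreement cannot be called particular to these regions. Runs of at least 3 neighbouring regions called in one direction numbered 10 and held 31 regions. The longest had 4 regions, all higher in phalange, on chr14:6155826-6304798 over 149 kb, with log2 differences from -0.68 to -0.45. The most compact run of 3 was chr17:8576546-8615327, higher in interzone over 38.8 kb with differences from 0.39 to 0.53. Another run of 3, chr17:2967277-3093272, ended in the second region named above for interzone. Regions in a run share libraries and may share a domain, so they are not independent.

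Some single chromosomes leaned one way. On chromosome 17, 25 regions were higher in interzone and 8 in phalange. On chromosome 14 the numbers were 7 and 26, and on chromosome 20 they were 12 and 26. Chromosomes 15, 18 and 13 were balanced, with 18 and 18, 20 and 18, and 16 and 15. Larger chromosomes leaned too, with 153 and 211 on chromosome 1 and 40 and 25 on chromosome 10. Over all 17455 tested regions 1291 were higher in interzone and 1490 in phalange. Over the 15 chromosomes with at least 100 regions, the share called ran from 6.31% on chromosome 27 to 15.7% on chromosome 18. On chromosomes 31 and 32 0 regions were called.

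No H3K4me1 difference between the tissues was called. Among the 3448 regions with the mark in all 4 lists, limma called 0 at an adjusted p under 0.05, as it did over all 16780 regions tested (background 0%), and the smallest adjusted p was 0.217. At an unadjusted p under 0.05 there were 420 regions (12.2%, against a background of 10% over all tested regions), of which 236 were on the interzone side and 184 on the phalange side. The zero count depended on the libraries. Without interzone 1, 10 regions were called on the interzone side and 9 on the phalange side, and without interzone 2 these were 15 and 11, in fits that assume the lone interzone library to vary as the phalange libraries do.

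The 3 regions with the smallest p for an H3K4me1 excess in interzone were chr28:3042714-3049617, chr27:5383718-5384561 and chr23:5382058-5387032. Their folds were 3.78 and 4.22 in interzone and 2.52 and 2.57 in phalange at the first, 4.31 and 4.59 against 2.89 and 2.88 at the second, and 4.12 and 3.86 against 2.51 and 2.47 at the third. H3K27ac was not called at any of the 3, with log2 differences of 0.23, -0.13 and 0.12. In phalange they were chr20:9360038-9362207, chr15:11260992-11264660 and chr23:1022033-1024021. Of these the region on chromosome 15 was also called for H3K27ac, with folds of 2.51, 2.27 and 2.15 in interzone and 3.69, 3.39 and 4.86 in phalange (log2 difference -0.77 ± 0.13, SE, limma adjusted p = 0.000582). Its H3K4me1 was 2.23 and 2.48 in interzone and 2.96 and 3.87 in phalange, with a limma adjusted p of 0.276.

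Although no region was called for H3K4me1, the mark leaned the same way as H3K27ac in the regions that were called for acetylation. Of 197 regions called higher in interzone and measured for both marks, H3K4me1 was higher in interzone in 147 (74.6%), with a median log2 difference of 0.11. Of 232 called higher in phalange it was higher in interzone in 55 (23.7%), with a median of -0.12. Among the 3019 regions not called this share was 50.3%. Over all tested regions it was 72.0%, 27.2% and 49.5% in the same order. Across the 3448 regions the 2 differences had a Pearson r of 0.31 and a Spearman rho of 0.27. The points share genome and tissue pools, and regions are not independent replicates.

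RNA of genes on the same chromosomes gave few calls in the fit used here. With DESeq2 on these libraries and the same thresholds, the paper reported many more genes as different, GDF5 and MATN1 among them. The few calls therefore do not show that the tissues were alike in RNA. Of 3943 genes placed on them by the RefSeq table, 3360 had a mean normalized count of at least 10 and were tested with limma on log2(normalized count + 1). That table is of another assembly (GRCg7b) and placed 11720 of the 15984 gene IDs, so genes without a place were not counted here. The only gene called among the 3360 was SNAI1 on chromosome 20, a zinc finger repressor of transcription. Over all 11928 genes tested, placed or not, 3 were called (0.0252%). At an unadjusted p under 0.05 there were 194 genes (5.77%, against a background of 6.46%). SNAI1 had normalized counts of 2037, 1591 and 2668 in interzone libraries 1, 2 and 3 and 8057, 8930 and 9587 in phalange libraries 1, 2 and 3, a log2 fold change of -2.11 ± 0.22 (SE, limma adjusted p = 0.0335). With the replicate block, and in 5 of the 6 fits with a library left out, limma called 0 genes on these chromosomes, and without phalange 1 it called 2. Of 51 listed joint, cartilage and limb genes, 19 lay on these chromosomes, 17 were tested and 1 was called, and 8 had an unadjusted p under 0.05. The list includes genes that the paper reported as different in these same libraries, SNAI1, GDF5 and MATN1 among them. These counts are therefore not independent of the data. GDF5, the growth factor of the joint interzone on chromosome 20, had counts of 18746, 43350 and 12167 in interzone and 2925, 3343 and 4628 in phalange (log2 fold change 2.59 ± 0.41, SE, limma adjusted p = 0.119). MATN1, a cartilage matrix protein on chromosome 23, had 1045, 1780 and 623 in interzone and 6418, 18820 and 15769 in phalange (-3.56 ± 0.47, SE, limma adjusted p = 0.0695). The tissues did not overlap in these 3 genes. No gene annotation of the build of the peaks was used here, so no region was assigned to a gene.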

How the data were processed

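For ChIP-seq, the authors mapped reads to Gallus gallus 6.0 with Bowtie 2, removed duplicates with Picard and called broad peaks with MACS2 in each library against input, with versions not given in the sources used here. The deposited lists give each peak's fold enrichment over input (a linear ratio) and the -log10 of its p and q. The lowest -log10 q of a list was 1.00 to 1.01, which is looser than the FDR under 0.05 that the paper states. For RNA-seq, the authors trimmed with Trimmomatic, mapped with STAR, counted with featureCounts and deposited counts divided by DESeq2 size factors, a normalized signal. A total of 0 columns of per-sample values were left without a sample.

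The 6 H3K27ac lists were merged across gaps under 1 kb, and an overlap was at least 1 base. Fold enrichment per region was the length-weighted mean over a library's peaks. Since folds of separate lists have no common scale, log2 folds were centred on the median of each list over all tested regions and tested with limma 3.58.1 (trend) in R 4.3.3, with p adjusted over all tested regions (Benjamini-Hochberg, threshold 0.05). RNA was tested as log2(normalized count + 1), a scale that understates changes of low genes, and called at an adjusted p under 0.05 and a log2 fold change beyond 0.5. Comparisons within libraries used exact permutation tests. Python 3.11.15, numpy 2.4.6, pandas 2.3.3, scipy 1.17.1, matplotlib 3.10.9 and bedtools 2.31.1 were used.

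Named regions were the 5 with the largest called H3K27ac difference in each direction, the 5 with the highest mean H3K27ac, the 3 with the largest H3K4me1 difference in each direction and the 2 on each side of the width limit. As no region was called for H3K4me1, these were the smallest p among regions without overlap. Runs of neighbouring regions, and chromosomes described singly, were chosen after their values were seen. Regions and lists were chosen with earlier results of these data known.

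Deviations of same-numbered H3K27ac libraries correlated at r = 0.12, 0.16 and 0.30 for replicates 1, 2 and 3. Interzone 1 with phalange 2 (r = 0.11) and interzone 2 with phalange 1 (r = 0.08) came close to the first of these. Each same-numbered r was the highest for its libraries, but only replicate 3 stood well apart. For H3K4me1 r was 0.29 for same-numbered libraries and -0.29 for the others. These mirror each other because each tissue has 2 libraries of that mark. Whether the numbers pair the libraries was thus not settled. The counts reported are from the fit without a replicate block. For same-numbered RNA libraries r was 0.19, 0.08 and -0.02. On simulated data limma recovered 64% of H3K27ac changes of 0.5 and 100% of changes of 1 on the log2 scale over 17455 regions, and 75% and 100% for H3K4me1 over 16780. The simulated libraries had independent normal noise with the same spread in every region. That is simpler than the real libraries, so these shares do not give the recovery in the data. Alternatives covered the merging gap, width limit, q, centring, averaging of peaks, limma's trend, the replicate block, the RNA pseudocount and filter, and each library left out. Promoters were not removed, and sequence was not examined, since no genome of the build was used here. Inputs were not used here.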

Additional observations from a re-analysis of the deposited data

Results flagged for a closer look

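Regions that met the rest of the rule but lay outside the numbered chromosomes and Z carried signal that the comparisons above did not use. There were 46 such regions on sequences without a chromosome number and 17 on chromosome W. The chromosome of the sequences without a number is not given in the files.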

How the results depend on the processing

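Of 373 values recomputed under alternatives, 339 kept their direction and their side of the threshold or stayed within the limit for a count, 18 moved, 9 newly passed and 7 changed sign. The H3K27ac differences of chr12:11075892-11079519 and chr20:10994943-11000585, called in no fit, changed sign to 0.054 without interzone 1 and 0.016 without interzone 2, within ranges of -0.17 to 0.054 and -0.14 to 0.016 with a library left out. The number of regions was 5465 when only touching peaks were merged and 2338 with a width limit of 5 kb. It was 3588 with peaks of q at most 0.05, 2709 with q at most 0.001 and 3552 to 3906 with a library left out. With q of at most 0.001 and regions rebuilt, 110 were called higher in interzone and 125 in phalange. With a library left out these counts were 120 to 199 and 171 to 229, and without replicate 3 of both tissues, added after seeing the data, 100 were higher in interzone. The replicate block gave 228 and 280, and it changed no H3K27ac or H3K4me1 call count by over 1.5 times.

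H3K4me1 calls were 0 to 15 in interzone and 0 to 11 in phalange with a library left out, where 1 library stood alone for its tissue. The single RNA call became 3 with a pseudocount of 10, 0 with the replicate block, where RNA libraries share only a number, and 0 to 2 with a library left out. The excess over larger chromosomes compared between tissues, 0.0059, became -0.0354 with q of at most 0.001, -0.0018 under 5 kb, -0.0126 without replicate 3 of both tissues, and -0.0037 to 0.0170 with a library left out. The cause was not tested. Read-based RNA tests were not run, since whole reads could not be recovered for phalange 1 by the check used, and sequence features were not run. Read depth of the ChIP libraries is unknown, and fold comparisons are limited to regions with a peak in each library.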
